A study of Mus musculus with 19 samples.

Results

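The members were 10 mouse genes of transforming growth factor beta (TGF-beta) signaling: the ligand genes Tgfb1, Tgfb2 and Tgfb3, the receptor genes Tgfbr2, Tgfbr1, Acvrl1 and Eng, the target genes Id1 and Id3, and the inhibitor gene Smad7. They were chosen by symbol from a table of 41345 array probe sets, where a probe set is the group of probes that reads 1 transcript region. A gene was represented by the probe set that carried its symbol alone and had the highest mean over 19 arrays. All 10 members were found, each with 1 such probe set, among 22180 genes measured.

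RNA had been hybridised to Affymetrix arrays, 1 array per sample, to set angiosarcomas against normal vessel and muscle. The 7 angiosarcomas, malignant tumors with endothelial features, came from mice of genotype aP2-Cre/+;DicerFlox/-. These mice carried Cre recombinase under the promoter of aP2 (also called Fabp4), a floxed allele of Dicer, which encodes the RNase that cuts microRNA precursors, and a second Dicer allele written as minus. The normal tissues were 4 aortas, 4 quadriceps femoris muscles of the thigh and 4 sternocleidomastoid muscles of the neck, all from wild type mice. The strain was mixed C57Bl/6 and 129X1/SvJ throughout. No normal sample carried Cre or the altered Dicer alleles, so tissue, genotype and tumor state cannot be told apart. The labels give no age, sex, treatment or animal, and the p-values therefore measure only the spread between these samples.

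TGF-beta ligands are secreted in a latent form and, once released, bind the type II receptor Tgfbr2, which phosphorylates a type I receptor. In most cells that partner is Tgfbr1 (ALK5), which acts through Smad2 and Smad3. Endothelial cells also use Acvrl1 (ALK1) with the co-receptor endoglin (Eng), a route that acts through Smad1, Smad5 and Smad9 and switches on the Id genes. Acvrl1 and endoglin also bind bone morphogenetic proteins (BMPs), and inherited loss of either gene causes vessel malformations.

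Values are log2 intensities, so a difference of 1 is a doubling. Array medians lay between 5.35 and 5.48, every group mean of every member was above them, and the number of arrays limits the precision. The mean of 20 endothelial markers (Cdh5 and Emcn among the brightest) was 9.14 to 10.14 in tumors, 8.05 to 8.16 in aortas, 7.43 to 7.64 in quadriceps and 7.47 to 7.76 in sternocleidomastoid. Smooth muscle markers averaged 9.55 to 9.96 in aortas against 7.85 to 8.73 in tumors, and skeletal fibre markers averaged 12.13 to 12.49 in both muscles. The aortas also carried heart muscle markers (mean 8.62 to 9.08, with 5.28 to 5.75 in tumors) and brown adipocyte markers (9.70 to 10.13, with 5.01 to 7.91 in tumors). Ucp1 of brown fat read 12.67 to 12.86 in aortas, 9.99 to 11.73 in sternocleidomastoid and 4.39 to 11.08 in tumors, and the atrial gene Myl7 read 10.94 to 11.78 in aortas and stayed below the array medians in tumors at 4.17 to 4.48. Among the tumors the skeletal fibre mean ran from 5.201 to 10.38 and the platelet mean from 7.41 to 10.37. In bulk tissue fewer cells of a type and less RNA per cell cannot be told apart, and the part of these other cell types in the results was not tested.

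Of the 10 members, 7 were higher in tumors than in aortas and 0 were lower (limma, adjusted p under 0.05 over all 22180 genes), where 18.6% of all genes were higher and 17.5% lower. At an unadjusted p under 0.05 the count lower was also 0. The 7 were the ligands Tgfb1, Tgfb2 and Tgfb3 and the receptors Tgfbr2, Tgfbr1, Acvrl1 and Eng, while Id1, Id3 and Smad7 did not pass. In 4 of the 7 (Tgfb1, Eng, Tgfbr2 and Acvrl1) every tumor lay above every aorta, as did 12.2% of all genes. Against the mean of the muscle groups 8 members were higher and 0 were lower, also 0 lower at an unadjusted p under 0.05, where 25.3% of all genes were higher and 25.7% lower. In 5 members (Tgfb1, Eng, Tgfbr2, Acvrl1 and Tgfbr1) every tumor lay above every muscle, as did 14.6% of all genes. The median member difference was 0.59 against aorta and 1.07 against muscle, with medians of -0.02 and -0.04 over all genes. These comparisons share the tumor arrays and are given side by side.

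**Figure D1:**
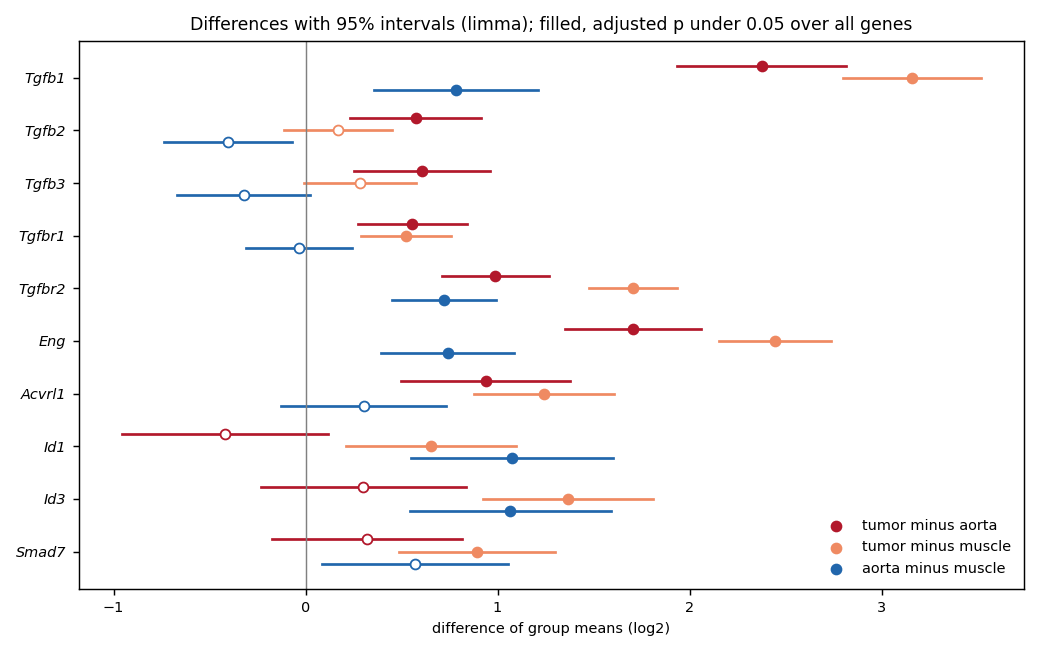
Each point is the difference between 2 group means in log2 units for 1 member, with its 95% interval from limma, and filled points passed an adjusted p of 0.05 over all genes. The differences of Tgfb1 (2.38 against aorta, 3.16 against muscle) and Eng (1.70 and 2.44) lie farthest to the right, and the interval of Id1 in tumor minus aorta (-0.96 to 0.12) spans 0.

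Tgfb1 encodes the TGF-beta isoform carried by platelets and made by many immune and stromal cells. The lowest, median and highest tumor values were 9.39, 10.44 and 10.70. The aortas read 8.11, 7.82, 7.49 and 7.69, the quadriceps samples 6.94, 6.90, 6.75 and 7.11, and the sternocleidomastoid samples 7.02, 7.12, 6.94 and 7.18. Every tumor exceeded every normal array, and every aorta exceeded every muscle. Tumors were 5.19-fold above aorta (log2 difference 2.38 ± 0.21, SE; limma adjusted p = 5.37e-08) and 8.93-fold above muscle (3.16 ± 0.17; adjusted p = 1.38e-11). In absolute size the difference from aorta was above that of 98.6% of all genes. All 7 platelet markers measured and 14 of 15 macrophage markers were also higher in tumors than in aortas.

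Tgfb2 encodes an isoform best known from heart and vessel development. Tumor values ran from 7.41 through a median of 7.53 to 8.09, the aortas read 6.89, 7.50, 6.97 and 7.06, and aorta 2 lay inside the tumor range. The quadriceps samples read 8.03, 7.95, 7.84 and 7.45, and the sternocleidomastoid samples 6.97, 6.99, 7.34 and 7.50, so that the thigh muscle stood with the tumors and most neck muscles below them. Tumors were 1.49-fold above aorta (0.57 ± 0.16; limma adjusted p = 0.00909). Against both muscles together Tgfb2 did not pass (0.17 ± 0.13, interval -0.11 to 0.45). Against sternocleidomastoid alone the difference was 0.48 ± 0.16 (adjusted p = 0.0211) and against quadriceps alone -0.14 ± 0.16 (adjusted p = 0.528).

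Tgfb3 encodes the third isoform, known for its part in palate formation and wound repair. In tumors it ran from 8.50 through 9.17 to 9.68, and the aortas read 8.49, 8.88, 8.48 and 8.36, so only aorta 2 exceeded the lowest tumor, tumor 5. The muscles filled the lower part of the tumor range, with quadriceps at 8.74 to 9.08 and sternocleidomastoid at 8.63 to 9.10. Tgfb3 was 1.52-fold higher in tumors than in aortas (0.61 ± 0.17; limma adjusted p = 0.00796) and did not pass against muscle (0.28 ± 0.14; adjusted p = 0.0988). Without tumor 5 the difference from muscle passed (0.39; adjusted p = 0.00858).

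**Figure D2:**
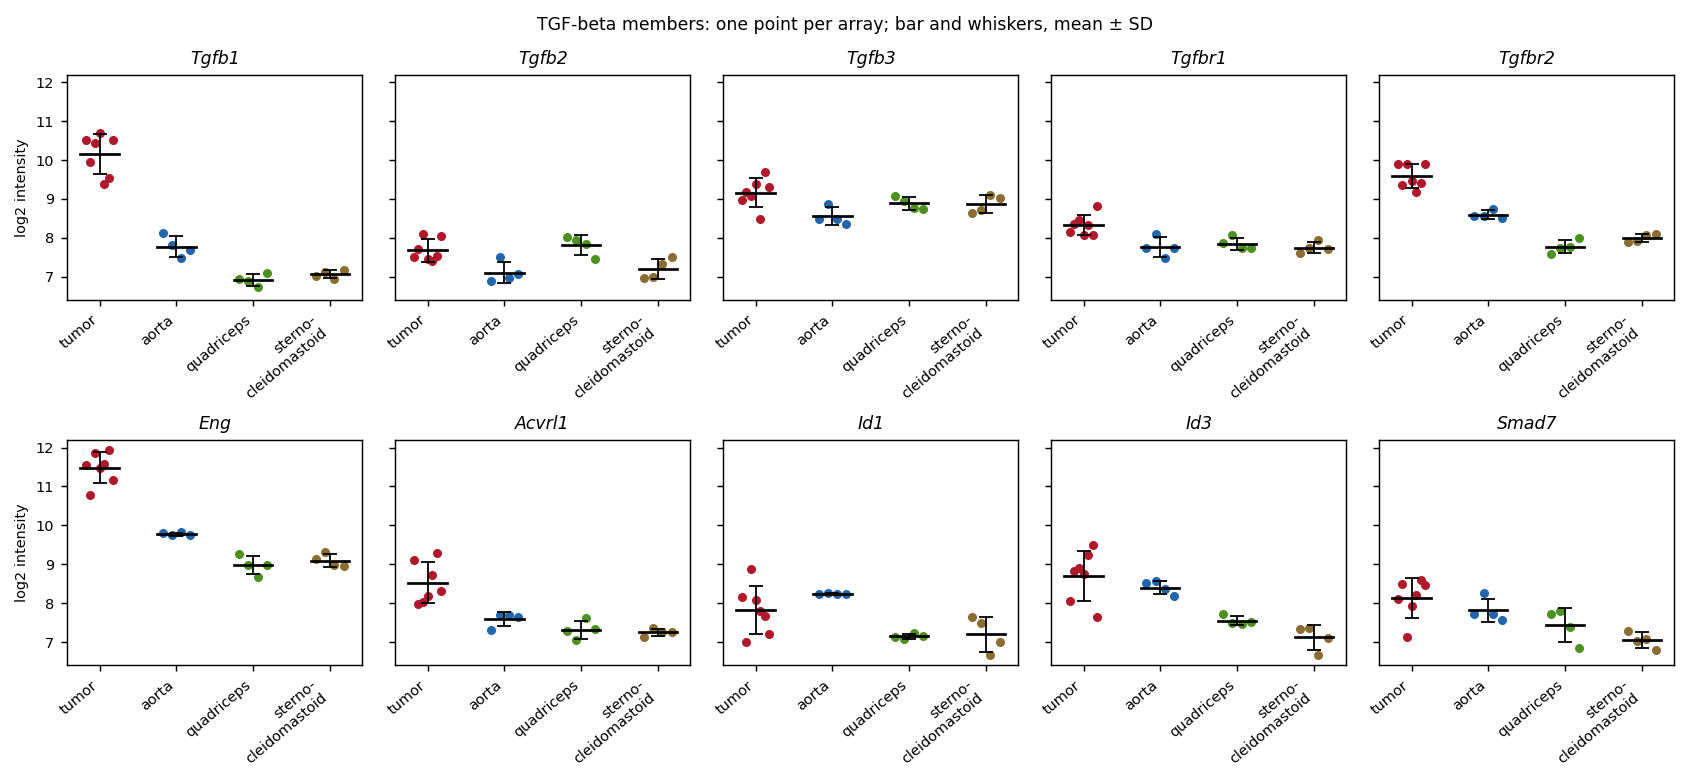
Each point is the log2 intensity of a member on 1 array, by tissue group (7 tumors, 4 aortas, 4 quadriceps, 4 sternocleidomastoid), with the mean as a bar and the SD as whiskers. Tumor points of Tgfb1, Tgfbr2, Eng and Acvrl1 sit above all points of the other groups, and the 4 aorta points of Id1 lie between 8.24 and 8.25 inside a tumor range of 7.004 to 8.87.

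Tgfbr2, the type II receptor that binds all 3 ligands, separated 3 levels. Tumor values ran from 9.19 through 9.46 to 9.90, the aortas read 8.55, 8.57, 8.75 and 8.52, and the muscles spanned 7.59 to 8.10. Every tumor exceeded every aorta and every aorta exceeded every muscle. Tumors were 1.98-fold above aorta (0.99 ± 0.13; limma adjusted p = 7.82e-06) and 3.27-fold above muscle (1.71 ± 0.11; adjusted p = 1.20e-10).

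Tgfbr1, the type I receptor that passes the signal to Smad2 and Smad3, showed smaller differences. The tumors ran from 8.08 through 8.34 to 8.82, and the aortas read 7.75, 8.10, 7.49 and 7.73, with aorta 2 just inside the tumor range. Quadriceps lay at 7.73 to 8.07 and sternocleidomastoid at 7.60 to 7.93, all below the lowest tumor. Tgfbr1 was 1.47-fold above aorta (0.56 ± 0.13; limma adjusted p = 0.00274) and 1.44-fold above muscle (0.52 ± 0.11; adjusted p = 0.000524).

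Eng encodes endoglin, the co-receptor that is abundant on proliferating endothelium. The tumors ran from 10.78 through 11.56 to 11.94, the aortas read 9.80, 9.74, 9.82 and 9.74, the quadriceps samples 9.26, 8.98, 8.68 and 8.99, and the sternocleidomastoid samples 9.13, 9.32, 8.97 and 8.96. The groups of tumor, aorta and muscle did not overlap. Tumors were 3.26-fold above aorta (1.70 ± 0.17; limma adjusted p = 2.26e-07) and 5.44-fold above muscle (2.44 ± 0.14; adjusted p = 2.44e-11).

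Acvrl1 encodes ALK1, the type I receptor of endothelial cells. In tumors Acvrl1 ran from 7.99 through 8.32 to 9.29, and the aortas read 7.31, 7.68, 7.70 and 7.65. The muscles lay at 7.04 to 7.61, so every tumor exceeded every normal array, while aorta 1 fell among the muscles. Tumors were 1.92-fold above aorta (0.94 ± 0.21; limma adjusted p = 0.00144) and 2.36-fold above muscle (1.24 ± 0.17; adjusted p = 4.93e-06).

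Aortas 1 and 3 carried more skeletal fibre signal (list means 7.88 and 7.64) than aortas 2 and 4 (5.57 and 5.86). With aortas 1 and 3 left out, which leaves 2 aortas, Tgfb1, Eng, Tgfbr2 and Acvrl1 still passed as higher in tumors than in aortas. What part the smaller group had in the lost calls was not tested. Tgfb2 (0.40; limma adjusted p = 0.190), Tgfb3 (0.54; adjusted p = 0.0948) and Tgfbr1 (0.41; adjusted p = 0.0873) no longer passed.

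Id1 and Id3 encode inhibitors of basic helix-loop-helix transcription factors and are standard readouts of the BMP and ALK1 route. Id1 ran from 7.004 through 7.79 to 8.87 in tumors, and the 4 aortas read 8.25, 8.25, 8.24 and 8.24. Only tumor 3 exceeded the aortas, and the quadriceps samples (7.07 to 7.22) and sternocleidomastoid samples (6.66 to 7.65) lay in the lower part of the tumor range or below it. Id1 did not pass against aorta (-0.42 ± 0.26, interval -0.96 to 0.12; limma adjusted p = 0.227) and was 1.57-fold higher than in muscle (0.65 ± 0.21; adjusted p = 0.0144). Against sternocleidomastoid alone it missed the threshold (0.63; adjusted p = 0.0531). Without tumor 3 it was lower in tumors than in aortas (-0.59; adjusted p = 0.0340). With tumors 5 to 7 alone Id1 was lower than in aorta (-0.69; limma adjusted p = 0.0124) and did not pass against muscle (0.38; adjusted p = 0.0855).

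Id3 ran from 7.65 through 8.84 to 9.48 in tumors, and the aortas read 8.52, 8.56, 8.35 and 8.17. Tumors 1 and 7 lay below all aortas and the other 5 tumors above them, and the difference did not pass (0.30 ± 0.26, interval -0.23 to 0.84; limma adjusted p = 0.402). The quadriceps samples read 7.71, 7.48, 7.47 and 7.53, and the sternocleidomastoid samples 7.35, 7.36, 6.68 and 7.11. Only tumor 7 overlapped the muscles, and Id3 was 2.58-fold higher in tumors than in muscle (1.37 ± 0.21; adjusted p = 1.62e-05).

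Smad7 encodes the inhibitory Smad that is induced by TGF-beta and blocks its type I receptors. Tumor values ran from 7.13 in tumor 3 through 8.22 to 8.60, and the aortas read 7.73, 8.25, 7.71 and 7.55. The quadriceps samples read 7.71, 7.81, 7.39 and 6.83 and the sternocleidomastoid samples 7.29, 7.02, 7.08 and 6.80, and all groups overlapped the tumor range. Smad7 was 1.86-fold higher than in muscle (0.89 ± 0.19; limma adjusted p = 0.000676) and did not pass against aorta (0.32 ± 0.24, interval -0.17 to 0.82; adjusted p = 0.321). Without tumor 3 the difference from aorta passed (0.49; adjusted p = 0.0471).

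Between the normal tissues, 5 members were higher in aorta than in muscle and 0 were lower by limma, where 17% of all genes were higher and 15.3% lower. Id1 (1.07 ± 0.25; adjusted p = 0.00233) and Id3 (1.07 ± 0.25; adjusted p = 0.00231) had the largest differences, at 2.10-fold and 2.09-fold. Tgfb1 (0.78 ± 0.20), Eng (0.74 ± 0.16) and Tgfbr2 (0.72 ± 0.13) followed. In all 5 every aorta exceeded every muscle, as in 14.6% of all genes. Tgfb2 was the 1 member lower in aorta at an unadjusted p under 0.05 (-0.40 ± 0.16; adjusted p = 0.0609). It passed when any of tumor 3, tumor 7, aorta 2, quadriceps 4 or sternocleidomastoid 1 was left out (adjusted p from 0.0205 to 0.0498). Smad7 passed as higher without tumor 3 (0.57; limma adjusted p = 0.0165). A tumor array does not enter the difference between aorta and muscle, only the spread that limma estimated over all groups. Smad7 passed too with dim genes left out (limma adjusted p = 0.0477), 1 variance per group (0.0271), compared groups only (0.0168) or sternocleidomastoid alone (0.0392). With compared groups only Acvrl1 also passed as higher in aorta (0.30; limma adjusted p = 0.03575) and Tgfb3 as lower (-0.32; adjusted p = 0.0447). Tgfb3 passed as lower with tumors 1 to 4 alone too (limma adjusted p = 0.0462). Brown adipocyte markers (7 of 10, with 1 lower) and heart muscle markers (8 of 10, with 0 lower) were also higher in aorta than in muscle. So were smooth muscle markers (12 of 14, with 1 lower) and endothelial markers (11 of 20, with 0 lower). The part of these cell types in the member differences was not tested.

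Between the 2 muscles 0 members passed in limma, where 0.433% of all genes did, and 1 member had an unadjusted p under 0.05. This was Tgfb2, 1.54-fold higher in quadriceps (sternocleidomastoid minus quadriceps -0.62 ± 0.18; adjusted p = 0.259). Id3 was the 1 member whose muscles did not overlap, with every sternocleidomastoid value below every quadriceps value, as in 3.6% of all genes (-0.42 ± 0.29; adjusted p = 0.874).

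Ordered by group mean, Tgfb1, Tgfbr2 and Eng were highest in tumor, then aorta, sternocleidomastoid and quadriceps, and only the step between the muscles did not pass. For Acvrl1 and Tgfbr1 the tumors stood above 3 normal tissues whose neighbours did not differ beyond their spread. Over all genes, 44.7% passed between tumor and quadriceps, 45.9% between tumor and sternocleidomastoid, 29.1% between aorta and quadriceps and 27% between aorta and sternocleidomastoid. For Tgfb2 the order was quadriceps, tumor, sternocleidomastoid and aorta, and only the step from tumor to sternocleidomastoid passed. For Id3 only the step from aorta to quadriceps passed (0.86 ± 0.29; limma adjusted p = 0.0304). No step between neighbours passed for Tgfb3, Id1 or Smad7.

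The regions just upstream of the start sites are shown for 3 members that separated tumors from aortas (Tgfb1, Tgfbr2, Eng) and for the target Id3, which did not. The RefSeq promoter table (build GRCm38.p6) matched 6 of the 10 members. Each sequence is the 250 bases before the start site, 5′ to 3′ along the gene's strand, at chr7:25686752-25687001 (plus strand) for Tgfb1, chr9:116175364-116175613 (minus) for Tgfbr2, chr2:32646345-32646594 (plus) for Eng and chr4:136143572-136143821 (plus) for Id3. Capitals mark the Smad-type motif CAGAC, or GTCTG where it lies on the opposite strand.
Tgfb1: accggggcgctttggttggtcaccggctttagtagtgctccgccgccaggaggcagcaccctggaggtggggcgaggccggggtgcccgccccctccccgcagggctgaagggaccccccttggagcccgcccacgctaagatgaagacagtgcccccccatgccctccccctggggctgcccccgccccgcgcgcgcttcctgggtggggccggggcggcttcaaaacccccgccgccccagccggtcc
Tgfbr2: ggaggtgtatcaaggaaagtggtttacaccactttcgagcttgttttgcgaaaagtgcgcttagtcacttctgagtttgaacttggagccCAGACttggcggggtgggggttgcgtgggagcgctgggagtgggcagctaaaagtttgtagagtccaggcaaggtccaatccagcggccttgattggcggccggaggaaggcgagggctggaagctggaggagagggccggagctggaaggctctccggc
Eng: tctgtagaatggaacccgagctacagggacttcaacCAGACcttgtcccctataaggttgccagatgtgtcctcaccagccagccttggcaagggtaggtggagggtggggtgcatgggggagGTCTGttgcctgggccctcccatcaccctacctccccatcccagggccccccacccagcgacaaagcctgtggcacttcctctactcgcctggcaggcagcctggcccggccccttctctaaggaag
Id3: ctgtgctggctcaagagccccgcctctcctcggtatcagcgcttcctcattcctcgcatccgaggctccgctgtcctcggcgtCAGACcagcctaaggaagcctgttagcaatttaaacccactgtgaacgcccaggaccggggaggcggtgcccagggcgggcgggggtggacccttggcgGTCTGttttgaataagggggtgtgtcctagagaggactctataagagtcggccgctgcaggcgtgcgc

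On both strands CAGAC occurred 2 times in the Eng and Id3 windows, 1 time in that of Tgfbr2 and 0 times in that of Tgfb1, and 42.2% of 32851 promoter windows of this length held it. GGCGCC, a GC-rich motif bound by Smads of the BMP route, was in none of the 4 and in 9.6% of all windows. Among matched members not shown, GGCGCC was in 1 of 2 Tgfbr1 windows and not in that of Tgfb2. CAGAC occurred 1 time in the other Tgfbr1 window and 2 times in that of Tgfb2. The GC content was 75.2% for Tgfb1, 58.4% for Tgfbr2, 62.4% for Eng and 62.8% for Id3, with a median of 52.4% over all windows. A match is a description of these letters, not a bound site.

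The members were then set against the 20 endothelial markers of the same array, since 18 of the 20 were higher in tumors than in aortas, with a median difference of 1.77. Eng lay 1.79 ± 0.23 (SD, n = 7) above their mean in tumors and 1.69 ± 0.04 (n = 4) above it in aortas, and the difference of 0.10 ± 0.15 (SE) did not pass (exact two-sided permutation p = 0.409). Tgfb1 stood 0.46 ± 0.62 above the marker mean in tumors and 0.31 below it in aortas (-0.31 ± 0.23), a relative rise of 0.77 (exact permutation p = 0.0485). Leaving out any of tumors 1, 2, 3, 4 and 7 or of the 4 aortas raised that exact p above 0.05, up to 0.108, while limma over all genes gave 0.77 ± 0.24 (adjusted p = 0.00463). The other 8 members fell by 0.62 to 2.03 against the markers (exact permutation p from 0.00303 to 0.0303). Those of Acvrl1 and Tgfbr2 were lost in 4 of 11 tests that left out 1 array, and those of Tgfbr1 and Smad7 without aorta 2 (exact p up to 0.0833). For Id1 the decrease was largest, from 0.16 ± 0.05 in aortas to -1.87 ± 0.36 in tumors (exact permutation p = 0.00303, the smallest that 330 splits allow). With arrays centred this way limma called 94.8% of all genes lower and 0.645% higher in tumors, so a relative decrease was what nearly all genes showed.

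**Figure D3:**
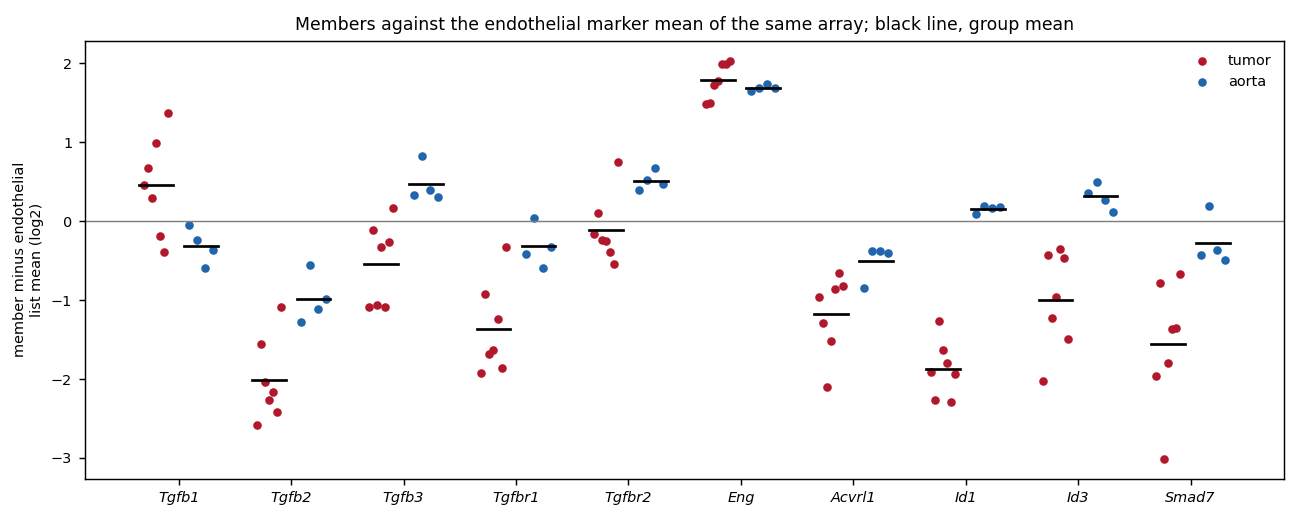
Each point is a member's log2 intensity minus the mean of the 20 endothelial markers on the same array, for 7 tumors and 4 aortas, with black lines at group means. Eng lies at 1.79 and 1.69 in the 2 groups, Tgfb1 rises from -0.31 in aortas to 0.46 in tumors, and the remaining members have lower means in tumors.

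The tumors differed among themselves most in Id3 (SD 0.65), Id1 (0.63), Acvrl1 (0.53), Tgfb1 (0.52) and Smad7 (0.50), each above the SD of 88.7% or more of all genes, whose median was 0.21. Of 45 pairs of members 2 had an unadjusted exact p under 0.05 over the 7 tumors and 0 after Benjamini-Hochberg adjustment over the 45. Id1 and Smad7 ran opposite ways (r = -0.894, exact permutation p = 0.00575, adjusted p = 0.259; rho = -0.857, exact p = 0.0238, adjusted p = 0.884). Tumor 3 had the highest Id1 and the lowest Smad7, and without tumors 2 and 3 r was -0.779. Tgfb2 and Tgfbr1 (r = 0.802, exact p = 0.0210, adjusted p = 0.473; rho = 0.643, exact p = 0.139, adjusted p = 0.884) rested on tumors 3 and 7, without which r was 0.363.

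Of 60 relations between members and the means of 6 marker lists, 6 had an unadjusted exact p under 0.05 and 1 passed after adjustment. Id3 was lower in the tumors with more platelet marker signal (r = -0.966, exact permutation p = 0.000595, adjusted p = 0.0357; rho = -0.964, exact p = 0.00278, adjusted p = 0.167). Tumors 1 and 7 had the highest platelet means and the lowest Id3, and without them r was -0.851. Id3 also ran opposite to the fibroblast marker mean, which did not pass (r = -0.787, exact p = 0.0359, adjusted p = 0.431; rho = -0.857, exact p = 0.0238, adjusted p = 0.256), with r = -0.826 without tumors 3 and 7. Tgfb1 leaned higher with more platelet marker signal and did not pass (r = 0.758, exact p = 0.0627, adjusted p = 0.491; rho = 0.821, exact p = 0.0341, adjusted p = 0.256), with r = 0.852 without tumors 1 and 7. The other 4 relations with an unadjusted exact p under 0.05 did not pass either. Eng was lower with more macrophage marker signal (r = -0.889, exact p = 0.00813, adjusted p = 0.244; rho = -0.750, exact p = 0.0663, adjusted p = 0.361) and higher with more endothelial marker signal (r = 0.830, exact p = 0.0190, adjusted p = 0.286; rho = 0.714, exact p = 0.0881, adjusted p = 0.407). Both were weaker without tumors 2 and 7, where r was -0.401 and 0.556. Id1 was higher with more endothelial marker signal (r = 0.857, exact p = 0.0131, adjusted p = 0.262; rho = 0.857, exact p = 0.0238, adjusted p = 0.256), with r = 0.620 without tumors 2 and 7. Tgfb2 was lower with more adipocyte marker signal (r = -0.772, exact p = 0.0498, adjusted p = 0.491; rho = -0.857, exact p = 0.0238, adjusted p = 0.256), with r = -0.783 without tumors 5 and 6. The labels give no batch within which these relations could be repeated.

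**Figure D4:**
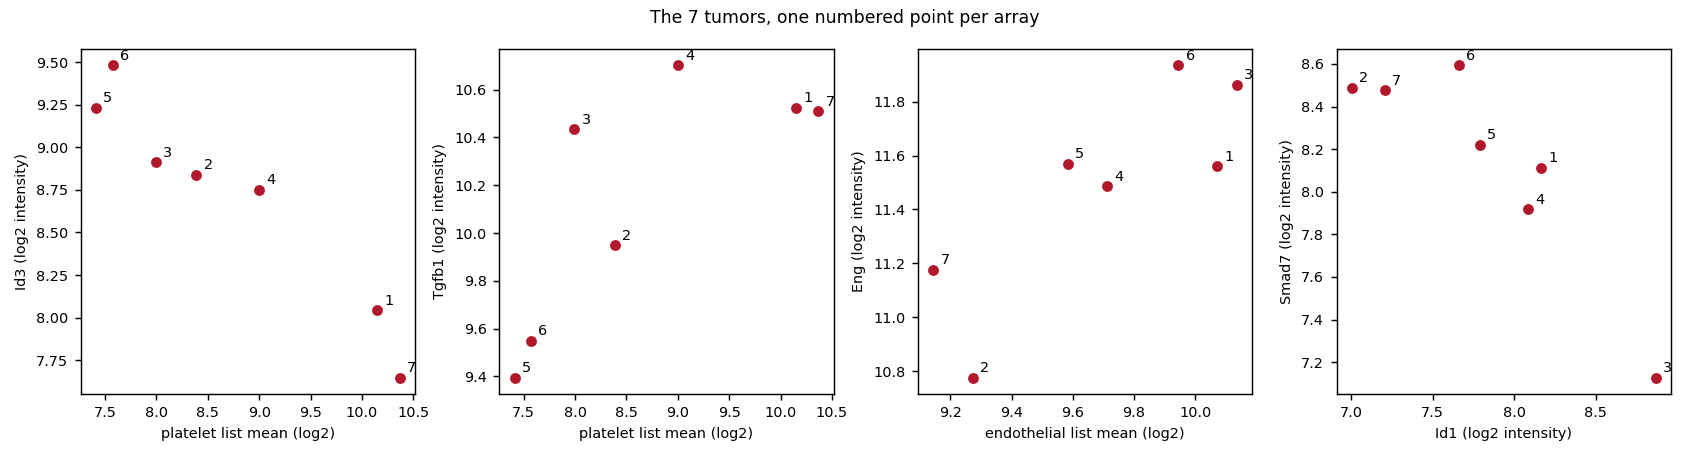
Each panel plots the 7 tumors, numbered, on log2 axes: Id3 and Tgfb1 against the mean of the platelet markers, Eng against the mean of the endothelial markers, and Smad7 against Id1. Id3 falls across the platelet axis (r = -0.966), and tumor 3 sits alone in the last panel with the highest Id1 and the lowest Smad7.

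Beyond the members, 73 other genes of the TGF-beta and BMP pathway were measured in 6 lists by role. Of these, 30 were higher and 12 lower in tumors than in aortas (median difference 0.30), and 37 were higher and 13 lower than in muscle (median 0.41), beside the shares of all genes given above. Some genes of these lists were not analysed here.

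Among 10 other ligands 2 were higher and 0 lower than in aorta by limma, with a median of -0.05, and 1 was lower at an unadjusted p under 0.05 (Bmp6, -0.68; adjusted p = 0.0627), named after its values were seen. Against muscle 2 were higher and 2 lower. Inhbb, the beta chain of activin B, ran from 6.38 through 7.09 to 8.40 in tumors and from 5.63 to 5.73 in aortas, with no overlap (1.68 ± 0.30 against aorta; 1.80 ± 0.25 against muscle). Gdf11, a ligand close to myostatin, was higher than in aorta (0.92 ± 0.30; limma adjusted p = 0.0226), a call lost without aorta 2 (0.79; adjusted p = 0.0834). Mstn, the muscle growth inhibitor myostatin, was lower than in muscle by a difference of -6.41, with tumors at 3.45 to 4.80, under the array medians, and muscles at 9.72 to 10.9. Inhba, the chain of activin A, had a muscle mean of 4.99, below the array medians, and tumors at 4.75 to 7.57 that overlapped the muscles. It was higher in tumors than in muscle (0.89 ± 0.30). Bmp7 was lower (-0.25 ± 0.09; adjusted p = 0.0311), a call lost when any 1 of 8 arrays was left out (adjusted p up to 0.0710), and its difference was -0.12 with tumors 5 to 7 alone (adjusted p = 0.463) and -0.13 against quadriceps alone (0.383).

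Among 13 other receptors and co-receptors 5 were higher and 4 lower than in aorta, and 2 were higher and 7 lower than in muscle. Cd109, a membrane-anchored co-receptor that restrains TGF-beta signaling, was higher than in both (1.92 ± 0.39 and 3.03 ± 0.32), although the lowest tumor, at 6.24, lay among the aortas at 5.94 to 6.47. Acvr1b, the activin receptor ALK4, was higher than in aorta (1.16 ± 0.14), as was the BMP type II receptor Bmpr2 (0.35 ± 0.07; limma adjusted p = 0.000809), named here after its values were seen. Acvr1c, the receptor ALK7 of fat cells, was lower than in aorta (-2.0 ± 0.62; adjusted p = 0.0159), ran from 5.18 to 9.27 in tumors, and did not pass without aorta 4 (adjusted p = 0.0514), with compared groups only (0.0546) or without aortas 1 and 3 (0.0653). With tumors 5 to 7 alone the Acvr1c difference was -0.94 (limma adjusted p = 0.316). Adipocyte markers were lower than in aorta in 8 of 10, with tumor means from 6.27 to 10.99 and aorta means from 10.6 to 10.8, and their part in the Acvr1c difference was not tested. Bmpr1b was lower than in aorta (-1.05 ± 0.30) and muscle (-1.30 ± 0.25) at a tumor mean of 4.42, below the array medians. Hjv, the BMP co-receptor hemojuvelin of muscle and liver, and the BMP type I receptor Bmpr1a were lower than in muscle (-5.19 ± 0.45 and -1.37 ± 0.14). All 12 skeletal fibre markers were also lower there (median -4.64), and their part in the values of Mstn and Hjv was not tested.

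**Figure D5:**
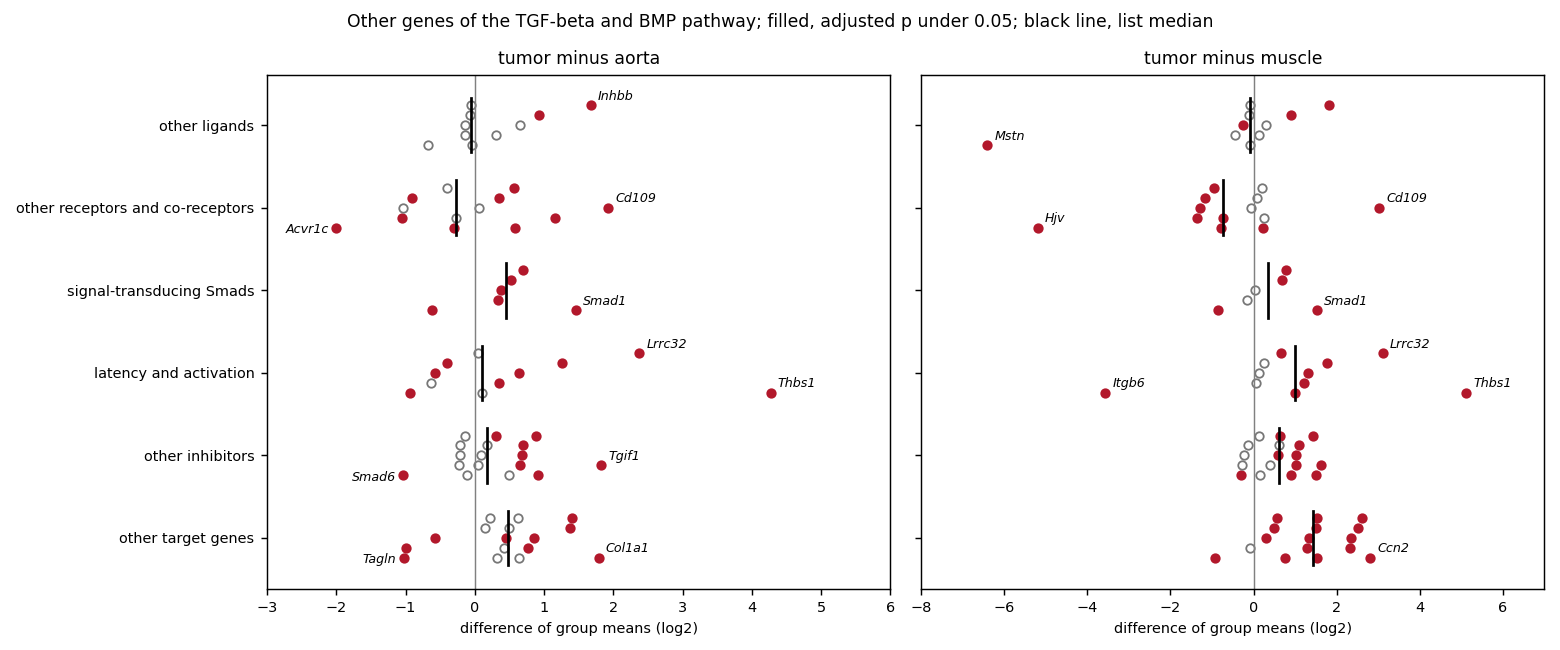
Each point is 1 other pathway gene, placed by role and by its log2 difference between tumors and aortas (left) or muscles (right), with filled points past an adjusted p of 0.05 and black lines at list medians. Thbs1 lies farthest to the right (4.27 and 5.11), Acvr1c farthest to the left against aorta (-2.0) and Mstn against muscle (-6.41).

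Of the 6 signal-transducing Smads 5 were higher and 1 lower in tumors than in aortas. Smad1, of the BMP and ALK1 route, ran from 7.40 through 8.54 to 8.73 in tumors and from 6.68 to 6.93 in aortas, with no overlap, and muscles also lay lower (1.46 ± 0.19 against aorta; 1.53 ± 0.15 against muscle). Smad5, of the same route, was higher by 0.69 ± 0.17 and 0.69 ± 0.14. Smad9, the third Smad of that route, was lower than in aorta (-0.62 ± 0.12) at a tumor mean of 5.09, below the array medians. Smad3, of the Tgfbr1 route, was higher than in aorta (0.52 ± 0.13) and lower than in muscle (-0.85 ± 0.11), and its partner Smad2 was higher than in muscle (0.77 ± 0.10). Smad4, the partner shared by both routes and named after its values were seen, was higher than in aorta (0.37 ± 0.07; limma adjusted p = 0.000468).

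Of 11 genes for ligand latency and activation 5 were higher and 3 lower than in aorta, and 7 were higher and 1 lower than in muscle. Lrrc32 (GARP), which tethers latent TGF-beta on the surface of platelets, regulatory T cells and endothelium, ran from 8.93 through 9.26 to 9.95 in tumors, from 6.79 to 7.03 in aortas and from 5.596 to 6.52 in muscles. It was higher by 2.37 ± 0.16 against aorta (limma adjusted p = 3.50e-09) and 3.11 ± 0.13 against muscle. Thbs1, a platelet and matrix protein that can release latent TGF-beta, was higher by 4.27 ± 0.31 and 5.11 ± 0.25, beside the higher platelet markers given above, whose part was not tested. Itgav, the integrin chain that pulls TGF-beta from its latent complex, was higher than in aorta (1.26 ± 0.25). A second, dimmer Itgav probe set differed by 0.39. Ltbp1, which binds the latent complex to matrix, was lower than in aorta (-0.94 ± 0.35; adjusted p = 0.0423), a call lost in 13 of 19 fits that left out 1 array (adjusted p up to 0.123). With tumors 5 to 7 alone the Ltbp1 difference was -0.0775 (limma adjusted p = 0.737). Itgb6, a partner chain of Itgav, was lower than in muscle (-3.56 ± 0.13), with tumors at 4.67 to 5.86 and muscles at 8.59 to 9.10, and the latent-complex relative Ltbp2 was higher (1.76 ± 0.33).

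Of 17 other inhibitors 7 were higher and 1 lower than in aorta, and 9 were higher and 1 lower than in muscle. Tgif1, a corepressor of Smad2 and Smad3, ran from 7.57 to 8.75 in tumors and from 6.32 to 6.602 in aortas, and was higher by 1.83 ± 0.16 against aorta and 1.61 ± 0.14 against muscle. The ubiquitin ligases Smurf1 and Smurf2, which work with Smad7, were higher than in aorta by 0.88 ± 0.13 and 0.91 ± 0.14. Against muscle Pmepa1 and Skil, inhibitors that TGF-beta itself induces, were higher by 1.49 ± 0.20 and 1.44 ± 0.16, as was Smurf1 (1.09 ± 0.11). Smad6, the inhibitory Smad of the BMP route, was the 1 lower than in aorta (-1.03 ± 0.26; limma adjusted p = 0.00378). With tumors 5 to 7 alone the Smad6 difference was -0.56 (limma adjusted p = 0.138), and without aortas 1 and 3 it did not pass (0.0600). Its tumor values ran from 5.62 through 5.90 to 7.43 and overlapped aortas at 6.95 to 7.56.

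Of 16 other target genes 6 were higher and 3 lower than in aorta (median 0.47), and 14 were higher and 1 lower than in muscle (median 1.42). The matrix genes Col1a1 (1.79 ± 0.33 and 2.61 ± 0.27) and Fn1 (1.38 ± 0.25 and 2.52 ± 0.20) were higher than in both, and the AP-1 subunit gene Junb was higher than in aorta (1.40 ± 0.25). Col1a1 is also 1 of the 10 fibroblast markers, of which 4 were higher and 1 lower than in aorta. Ccn2 (CTGF), a matricellular protein, was higher than in muscle (2.80 ± 0.30), while a second, dimmer Ccn2 probe set differed by 0.19. The contractile genes Tagln and Acta2 belong to smooth muscle as well. Tagln was lower than in aorta (-1.03 ± 0.25) and Acta2 higher than in muscle (2.34 ± 0.12). The smooth muscle markers, which include both, were lower than in aorta in 9 of 14, with 1 higher. Against muscle 9 of the 14 were higher and 4 lower. Id2, the relative of Id1 and Id3, was named after its values were seen. It ran from 8.03 through 8.28 to 9.60 in tumors, from 9.42 to 9.70 in aortas and from 6.39 to 7.86 in muscles, and was lower than in aorta (-0.99 ± 0.27; limma adjusted p = 0.00586) and higher than in muscle (1.52 ± 0.22).

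For the 6 members whose group means spread enough (SD of at least 0.5), the genes with the most similar pattern were found by the root mean square difference of values centred over the 19 arrays. Riken, Gm-numbered and other predicted names, and microRNA and small nucleolar RNA genes, were passed over. Eng was nearest to Adam15 (0.18), Ephb4 (0.19) and Egfl7 (0.19, itself one of the endothelial markers). Tgfb1 was nearest to Clic1, Fxyd5 and Tspan6 (0.26 to 0.27), and Tgfbr2 to Rnf145, Ptpn9 and Shkbp1 (0.16 to 0.17). Acvrl1 was nearest to Chn2, Abca3 and Cpne8 (0.24 to 0.27), Id1 to Gbp3, Wdr73 and Plxnb1 (0.28 to 0.29), and Id3 to Myl12b, Fmr1 and Irak2 (0.28 to 0.33). The values describe likeness over these arrays and nothing else about the genes.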

How the data were processed

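The deposited values were read as log2 intensities per probe set. Per the submitters' processing notes Partek 6.6 was among the authors' tools, and how the values were normalized is not given in the sources used here. No further scaling entered the principal results. Of 41345 probe sets 23521 had a single gene symbol, and the brightest of these per gene left 22180 genes. Groups came from the labels. In R 4.3.3 the limma 3.58.1 functions lmFit and eBayes gave each tissue group its own mean over the 19 arrays, and two-sided p-values were adjusted by Benjamini-Hochberg across every gene, with 0.05 as the threshold. Muscle was the mean of both muscle group means. The steps were tested on simulated data.

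Members and gene lists were chosen with earlier results of these data known. Named genes were all members, up to 4 genes per pathway list with the largest difference past the threshold in each tumor comparison, the 2 brightest genes of a marker list, and the 3 nearest genes of a member; others are said to be named after their values were seen. Values relative to endothelial markers were tested by exact permutation without adjustment over the members alone, with limma over all genes as an addition chosen after seeing the data. Alternatives were other centrings, quantile normalization, a filter on dim genes, variance options, fits without the uncompared groups, a 2-fold minimum, a threshold of 0.01, either muscle by itself, subsets of tumors or aortas, and leaving out each array.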

Additional observations from a re-analysis of the deposited data

Results flagged for a closer look

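Acvrl1 in aorta 1 lay far from the other aortas by Dixon's criterion. It read 7.31, against 7.65 to 7.70 in aortas 2 to 4, a gap that made up 0.874 of the group's range. Of the 40 groups tested (10 members in 4 tissues) this was the 1 such array, and chance gives about 1 in 20 groups.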

How the results depend on the processing

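No paired analysis was possible because the labels carry no replicate numbers. A second probe set gave no value for the members, each of which has 1. Of 1360 member values under the alternatives 1303 kept direction and side of the threshold, 18 lost a call, 27 gained one and 12 reversed. Median centring, housekeeping centring and quantile normalization did not move the median of all genes by over 0.1. Centring on the endothelial markers, a separate fit, put that median at -1.63 in tumor minus aorta. A 2-fold minimum left 2 members higher than in aorta, 5 higher than in muscle and 2 higher in aorta than in muscle. Without aortas 1 and 3, Tgfb2, Tgfb3 and Tgfbr1 did not pass against aorta. Members lower than in aorta numbered 1 (Id1) with tumors 5 to 7 alone and 0 to 1 when single arrays were left out. Members lower in aorta than in muscle numbered 2 with compared groups only (Tgfb2 and Tgfb3) and 0 to 1 when single arrays were left out. They numbered 1 with tumors 1 to 4 alone (Tgfb3). The number was also 1 (Tgfb2) under median centring, quantile normalization, the dim filter, 1 variance per group and quadriceps alone. Reversals were small: Tgfb2 against quadriceps alone (-0.14), Tgfbr1 in aorta against sternocleidomastoid alone (0.0164) and without aortas 1 and 3 (0.11), and Tgfb3 between muscles centred on housekeeping genes (0.0177). Leaving out single arrays gave -0.14 to 0.0585 for Tgfbr1 in aorta minus muscle, and between muscles -0.10 to 0.0602 for Tgfb3, -0.16 to 0.0279 for Acvrl1 and -0.10 to 0.23 for Id1. Over all genes, a 2-fold minimum left 1261 higher and 1308 lower in tumor minus aorta (4131 and 3892 without it), 2140 and 1723 in tumor minus muscle (5617 and 5691), and 1054 and 939 in aorta minus muscle (3772 and 3396). Between muscles 52 genes were higher and 44 lower; the counts were 133 and 86 with 1 variance per group, 120 and 80 with compared groups only, 26 and 23 at a threshold of 0.01, 30 and 22 with a 2-fold minimum, and 53 and 27 centred on housekeeping genes. They went down to 25 higher (without quadriceps 2) and 26 lower (without sternocleidomastoid 2), and up to 84 higher when the fit held only tumors 1 to 4 and 81 when tumors 2 and 5 were left out. Among the named genes 8 calls were lost with tumors 5 to 7 alone: against aorta Tgfb3 (0.61; limma adjusted p = 0.0503), Gdf11 (0.80; 0.0729), Smad6 (-0.56; 0.138), Acvr1c (-0.94; 0.316) and Ltbp1 (-0.0775; 0.737), and against muscle Id1 (0.38; 0.0855), Inhba (0.88; 0.0882) and Bmp7 (-0.12; 0.463). There Smad7 against aorta (0.62; 0.0403) and in aorta minus muscle (0.57; 0.0161) passed. Without aortas 1 and 3, beside the members given above, Smad6 (0.0600), Id2 (0.0602), Acvr1c (0.0653), Gdf11 (0.0684) and Ltbp1 (0.146) did not pass against aorta. Nor did Acvr1c (0.0546) and Ltbp1 (0.126) with compared groups only, Inhba (0.0641) and Bmp7 (0.383) against quadriceps alone, Id1 (0.0531) against sternocleidomastoid alone, Bmp7 without tumors 2 and 5 (0.108) and Bmpr2 against muscle centred on housekeeping genes (0.0767). The cause of these changes was not tested.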
